A study of Mus musculus with 2 samples.

Results

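Fatty acid and triglyceride synthesis was followed through 10 genes, Acly, Acaca, Fasn, Elovl6, Scd1, Scd2, Gpam, Dgat1, Dgat2 and Srebf1, in kidney RNA of diabetic mice. They were found through the RefSeq accession of each gene probe on the array, which gave 13 of 39426 probes and 10 of 20017 named genes. RNA came from glomerular regions dissected from the kidneys of male mice whose strain background was C57BL/6J. The TG+STZ mice carried, per their label, a transgene that overexpresses Sirt1, a protein deacetylase that consumes NAD, and the WT+STZ mice were wild type. Both groups had been made diabetic with streptozotocin (STZ), which destroys the beta cells of the pancreas. The drug was dissolved in citrate buffer of 100 mmol/l and given when the mice were 8 weeks old, and tissue was taken at an age of 32 weeks. The series title places the Sirt1 of interest in the renal tubule. The sources used here do not name the promoter of the transgene, the number of mice behind each array or any pooling of RNA. Each group had 1 one-colour array, so no difference below has a replicate check, and no p-value was computed.

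Cells build fatty acids from citrate. ATP citrate lyase (Acly) cuts citrate to acetyl-CoA, acetyl-CoA carboxylase (Acaca) makes malonyl-CoA from it, and fatty acid synthase (Fasn) joins the units into palmitate. Elovl6 lengthens palmitate to stearate, and the stearoyl-CoA desaturases (Scd1, Scd2) place the first double bond. Gpam loads a fatty acid onto glycerol 3-phosphate on the mitochondrial outer membrane, and Dgat1 and Dgat2, unrelated enzymes of the endoplasmic reticulum, add the last fatty acid of a triglyceride. Srebf1 encodes SREBP-1, a membrane-bound transcription factor that insulin activates in liver and that drives most of these genes there.

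Both arrays were on 1 slide and read in 1 scan. Of 43020 gene spots, 76.26% were well above background on the TG+STZ array and 75.04% on the WT+STZ array, and no gene spot was saturated. Sirt1 itself read 2977 intensity units in TG+STZ and 2625 in WT+STZ, a log2 difference of 0.10 with a scanner error of 0.20. The sources used here do not say whether its probe reads the transgene, so the value checks no label. Differences below are in log2 units, TG+STZ minus WT+STZ, after each array was set to its 75th percentile. The error printed with a difference is that of the scanner software for this pair of spots and leaves out the spread between mice. Over 15975 genes measured on both arrays the differences had a median of 0.00, and the middle 95% lay between -0.52 and 0.49.

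Promoter sequence is shown for Fasn and Gpam, which serve fatty acid synthesis and glycerolipid assembly. They had nearly the same difference between the arrays (given below). Both differences were smaller than their scanner errors, so that likeness says nothing about shared regulation. The windows are the 250 bases before the RefSeq start, build GRCm38.p6, read 5′ to 3′ on the strand of the gene, with CCAAT boxes in capitals on either strand. The Fasn window is chr11:120824548-120824797, minus strand, and the Gpam window is chr19:55127239-55127488, minus strand, at the farther upstream of its 2 RefSeq starts.
Fasn: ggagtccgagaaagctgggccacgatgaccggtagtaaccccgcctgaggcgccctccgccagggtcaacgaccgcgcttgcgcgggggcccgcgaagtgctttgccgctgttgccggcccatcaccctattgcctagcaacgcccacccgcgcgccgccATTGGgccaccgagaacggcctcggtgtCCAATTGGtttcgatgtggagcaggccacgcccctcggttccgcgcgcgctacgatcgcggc
Gpam: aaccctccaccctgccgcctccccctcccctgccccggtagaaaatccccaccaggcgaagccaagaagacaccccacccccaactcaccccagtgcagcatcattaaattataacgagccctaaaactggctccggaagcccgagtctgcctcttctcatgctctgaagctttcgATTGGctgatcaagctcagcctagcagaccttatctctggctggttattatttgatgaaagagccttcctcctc
CCAAT is the letter core bound by NF-Y, a factor that works beside SREBP-1 at lipogenic promoters in liver. The Fasn window held 3 matches, beginning 90, 62 and 59 bases before the start, and the last 2 overlap on opposite strands. The Gpam window held 1 match, beginning 74 bases before the start, and the window at the other Gpam start held 0. Of all 32851 promoter windows, searched over the same 250 bases, 33.8% held CCAAT on either strand. The search covered 9 windows of 6 of the 10 genes, with Acly, Acaca, Elovl6 and Srebf1 beside these, and 4 of the 9 held CCAAT. Scd1, Scd2, Dgat1 and Dgat2 had no window in the promoter sequences used here, so their promoters were not searched. The sterol response letters TCACNCCAC, searched on both strands, occurred in 0 of these 9 windows and in 1.05% of all windows. The E-box letters CACGTG occurred in 0 of the 9 and in 6.02% of all. With shares this low, 0 of 9 windows cannot tell these promoters from others. Sites that differ from these letters were not searched. A match is a description of the letters and not of binding, and the array reads no binding.

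Scd1 stood apart from the other genes of the set, which read nearly the same on both arrays. Scd1, the main desaturase of liver and fat, was 2.38-fold higher in TG+STZ. The other 9 genes lay between -0.24 and 0.13 on the log2 scale. Of the 10 genes, 1 passed 2-fold upward and 0 passed it downward, where 0.52% of all measured genes did so upward, 0.469% downward and 0.989% in either direction. At 1.5-fold the count was again 1 upward and 0 downward, where 1.75% of all measured genes passed upward and 1.91% downward. All 13 probes were well above background on both arrays, so no gene of the pathway was lost to the filter on dim probes.

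**Figure D1:**
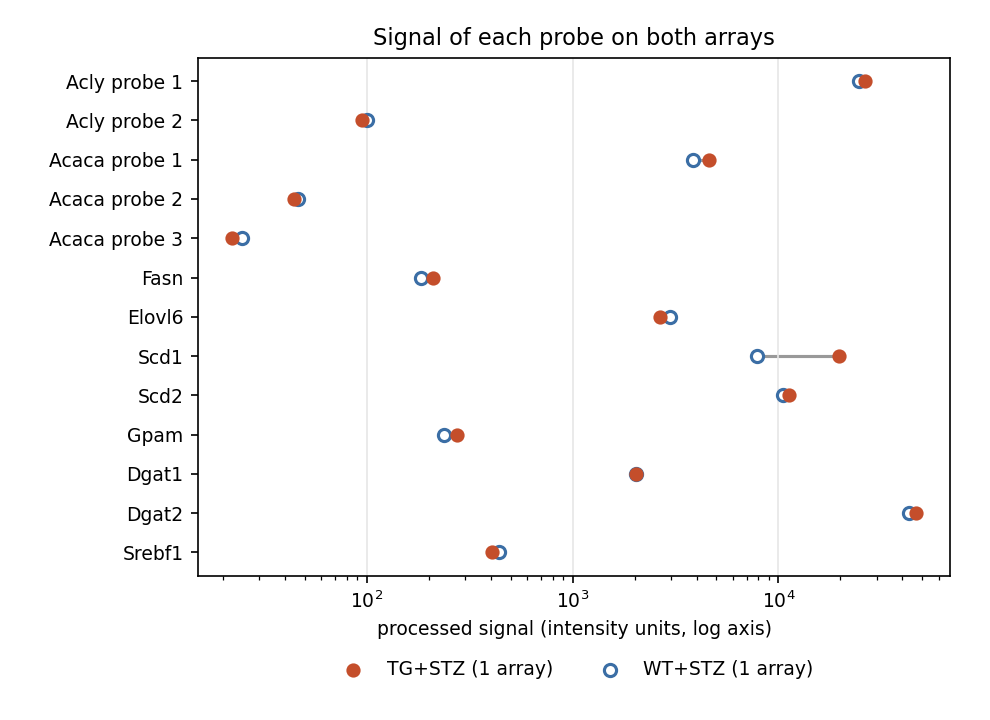
Processed signal in intensity units (log axis) of the 13 probes on the TG+STZ array (filled) and the WT+STZ array (open), 1 array each; levels of different probes are not comparable. The points of Scd1 lie apart, at 19700 units in TG+STZ and 7842 in WT+STZ, while those of every other probe nearly touch.

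At the entry of the pathway, Acly read 26468 units in TG+STZ and 24548 in WT+STZ with its brighter probe. That probe differed by 0.03 ± 0.20 (scanner error). A second Acly probe read 94.9 units in TG+STZ and 101 in WT+STZ, a difference of -0.17 ± 0.21. Both differences were smaller than their errors and lay on opposite sides of 0, so Acly had no direction here.

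Acaca, the enzyme that commits acetyl-CoA to fatty acid synthesis, had 3 probes. The brightest read 4584 units in TG+STZ and 3833 in WT+STZ, a difference of 0.18 ± 0.20. The dimmer probes read 44.5 and 22.2 units in TG+STZ and 46.4 and 24.7 units in WT+STZ. Their differences were -0.14 ± 0.23 and -0.23 ± 0.27, so the sign of Acaca depended on the probe. The mean over the 3 probes was -0.07 ± 0.14. The probes of Acaca spanned 0.41, and 6.50% of the 4153 genes with several measured probes had a wider span. Those of Acly spanned 0.20, and 22.7% of such genes were wider.

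Fasn, the synthase itself, read 210 units in TG+STZ and 184 in WT+STZ. The scaled difference was 0.11 ± 0.21, and 43.5% of all measured genes lay farther from 0. Elovl6, the next enzyme, read 2661 units in TG+STZ and 2965 in WT+STZ. It was the lowest of the 10 genes at -0.24 ± 0.20, just outside its scanner error, and 18.9% of all measured genes lay farther from 0. The synthase and the elongase that extends its product had opposite signs, and both values lay inside the middle 95% of all genes.

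Among the desaturases, Scd1 read 19700 units in TG+STZ and 7842 in WT+STZ. Its difference was 1.25 ± 0.20, the 50th highest of 15975 genes, and 0.551% of genes lay farther from 0 in either direction. Scd1 was brighter than the median gene, and of the 7987 genes that bright, 0.263% were at least 2-fold higher. Scd2, which encodes a closely related desaturase prominent in brain, read 11215 units in TG+STZ and 10559 in WT+STZ. Its difference was 0.01 ± 0.20, and 94.8% of all genes lay farther from 0. The difference of Scd1 exceeded that of Scd2 by 1.24 ± 0.29, a value that no array-wide scaling factor can move. Scd1 likewise exceeded Fasn by 1.14 ± 0.29, Srebf1 by 1.44 ± 0.29 and Elovl6 by 1.49 ± 0.29. Scd1 and Scd2 were each measured by 1 probe. The probe sequences are not in the tables used here, so whether the Scd1 probe also reads a related desaturase was not tested.

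**Figure D2:**
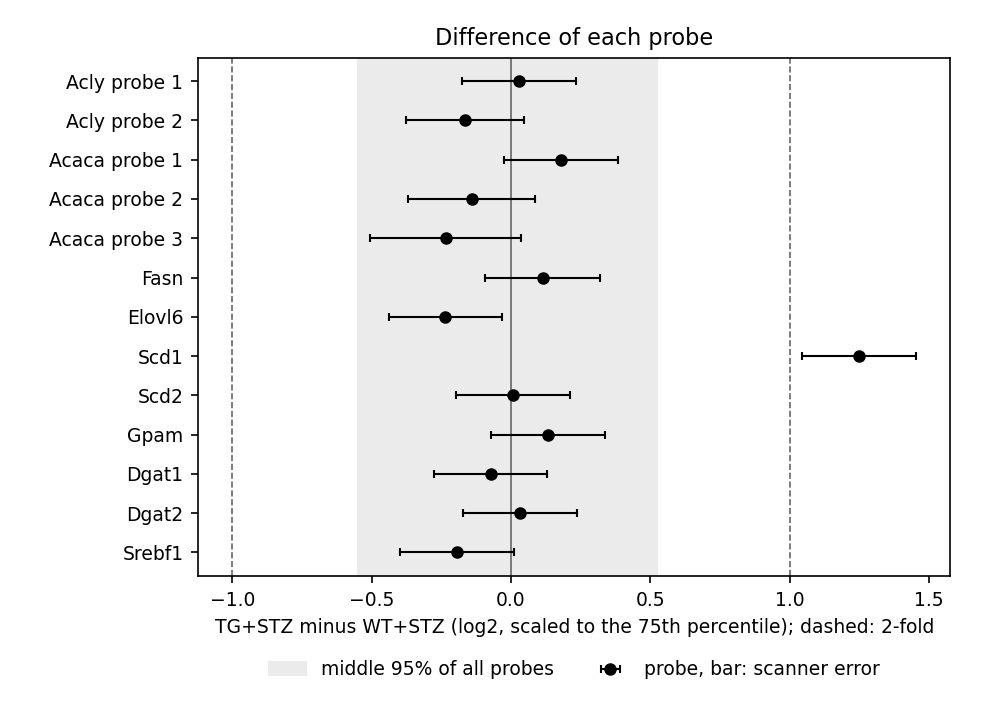
Log2 difference, TG+STZ minus WT+STZ, of the 13 probes, with the scanner error as bars, over the middle 95% of all 28998 measured probes (grey, -0.55 to 0.52). Scd1 at 1.25 is the only probe of the set outside the grey band, and Elovl6 at -0.24 is the only other one outside its own error bar.

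In triglyceride assembly, Gpam read 275 units in TG+STZ and 237 in WT+STZ. The difference was 0.13 ± 0.20, close to that of Fasn at 0.11 ± 0.21. Dgat1 read 2033 units in TG+STZ and 2025 in WT+STZ, which after scaling was -0.07 ± 0.20. Dgat2, the form tied to newly made fatty acids in liver, read 46681 units in TG+STZ and 43203 in WT+STZ, a difference of 0.03 ± 0.20. Dgat2 exceeded Dgat1 by 0.11 ± 0.29, less than the error of the comparison. None of these 3 genes of triglyceride assembly differed by more than its scanner error.

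Srebf1, the regulator, read 408 units in TG+STZ and 441 in WT+STZ. Its difference was -0.19 ± 0.20, lower by slightly less than the error, and 24.7% of all genes lay farther from 0. The probe is matched to 1 transcript accession, and which of the SREBP-1a and SREBP-1c forms it reads was not tested. Scd1, a target of SREBP-1 in liver, stood at 1.25 on the same scale, and Fasn, another target, at 0.11.

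Taken over the 10 genes, 5 were higher and 5 lower, with a median of -0.03, against 50.9% higher and a median of 0.00 over all measured genes. Differences varied more among the 10 (SD between genes 0.42) than among all genes (SD 0.26). Leaving out Scd1, the gene of the set farthest from 0, brought the SD to 0.13 and the median to -0.07 for the other 9. The SD of all genes keeps its extremes, from -2.59 to 4.82. It therefore cannot show whether those 9 varied unusually little. Of the 10, 8 lay within their own scanner error, Scd1 and Elovl6 being the others, and 12099 of all 15975 genes did so.

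**Figure D3:**
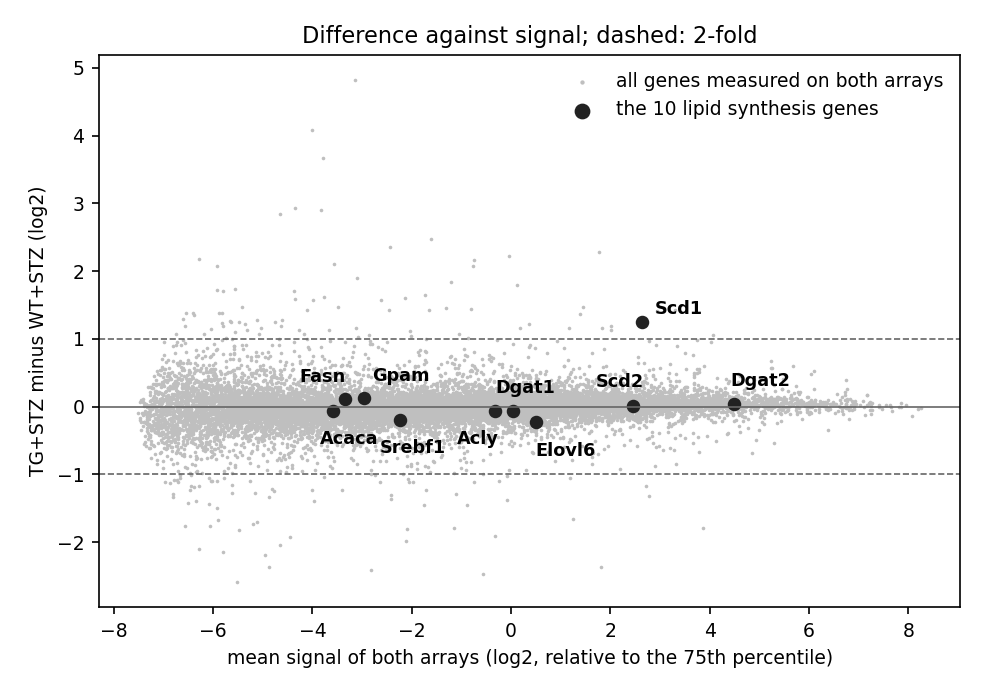
TG+STZ minus WT+STZ (log2) of all 15975 measured genes (grey) against their mean signal relative to the 75th percentile, with the 10 lipid synthesis genes in black and 2-fold as dashed lines. The 9 other genes lie inside the grey cloud, and Scd1 lies above the 2-fold line at 1.25.

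Genes that work beside these enzymes mostly had small differences. Of 36 other fatty acid synthesis genes, 33 were measured on both arrays, 19 higher and 14 lower, with a median of 0.04 and none at least 2-fold apart. Thrsp, which encodes Spot 14, a small protein linked to lipogenesis in liver and fat, was furthest at 0.69 ± 0.20, with 784 units in TG+STZ and 461 in WT+STZ. Me1, malic enzyme, a source of NADPH for fatty acid synthesis, followed at 0.38 ± 0.12. Its 3 probes were close to each other, between 0.36 and 0.39. Scd3, another desaturase gene, stood at 0.34 ± 0.13, but its probes ran from 0.06 to 0.87. Acsl3, an acyl-CoA synthetase, stood at 0.30 ± 0.20.

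All 18 other glycerolipid synthesis genes were measured, with 13 higher, 5 lower and a median of 0.13. None was at least 2-fold apart. The microsomal acyltransferase gene Gpat3 was furthest at 0.51 ± 0.20, with 3672 units in TG+STZ and 2443 in WT+STZ. Lpin1, a phosphatidate phosphatase, stood at 0.33 ± 0.15, Agpat5, a lysophosphatidate acyltransferase, at 0.32 ± 0.20 and Mogat1, a monoacylglycerol acyltransferase, at 0.28 ± 0.20. Gpat3 exceeded its own error, unlike the mitochondrial Gpam, and the difference between the pair was not tested.

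Of 24 regulators and lipid uptake genes, 23 were measured, 16 higher and 7 lower, with a median of 0.04 and none at least 2-fold apart. Cd36, a fatty acid transporter, was furthest at 0.57 ± 0.20, with 19763 units in TG+STZ and 12642 in WT+STZ. Lpl, the lipase that frees fatty acids from lipoproteins, stood at 0.35 ± 0.14 and Ppargc1b, a coactivator of SREBP-1 in liver, at 0.22 ± 0.20. Prkab1, a subunit of AMP-activated protein kinase, was lower at -0.37 ± 0.20. Cd36 and Lpl, both of fatty acid uptake, were the furthest upward in this list.

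Among lipid droplet and lipolysis genes, the larger differences were those of 2 genes that are also in the fat cell list. Of 18, 17 were measured, 12 higher and 5 lower, with a median of 0.07. Those 2 were at least 2-fold higher, where 0.52% of all measured genes were. These were Cidea at 2.90 ± 0.21 and Cidec at 1.28 ± 0.18, both droplet proteins of fat cells. Cidea read 393 units in TG+STZ and 49.9 in WT+STZ, and Cidec averaged 128 units in TG+STZ and 43.5 in WT+STZ. Plin5, a droplet coat protein of oxidative tissues, stood at 0.55 ± 0.20, and G0s2, an inhibitor of triglyceride lipase, was lower at -0.59 ± 0.20. Of the 14 droplet genes that are not also in the fat cell list, none was 2-fold apart, and their median was 0.06.

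Most measured markers of fat cells were higher on the TG+STZ array, the array with the higher Scd1. Of 20 fat cell markers, 18 were well above background in TG+STZ and 15 in WT+STZ. Of the 15 measured on both arrays, 14 were higher, with a median of 0.48, and 5 were at least 2-fold higher, where 0.52% of all measured genes were. These were Cfd at 4.82 ± 0.22, Cidea, Retn at 2.84 ± 0.24, Slc36a2 at 1.35 ± 0.31 and Cidec. Other markers lay near 0, among them Pparg at 0.05 ± 0.06, Lipe at 0.03 ± 0.21 and Aqp7, the only lower one, at -0.14 ± 0.21. Cfd, a secreted protease, read 1225 units in TG+STZ and 41.2 in WT+STZ, and Retn, the hormone resistin, read 218 units in TG+STZ and 28.9 in WT+STZ. Adipoq, Ucp1 and Plin1 were well above background in TG+STZ and not in WT+STZ, and Lep and Elovl3 on neither array. Ucp1, the heat-producing protein of brown fat, read 274 intensity units in TG+STZ and 3.63 in WT+STZ, Adipoq, the hormone adiponectin, 156 units in TG+STZ and 7.07 in WT+STZ, and Plin1, a coat protein of fat cell droplets, 46.8 units in TG+STZ and 10.6 in WT+STZ. They were higher in TG+STZ by at least 24.5-fold, 13.9-fold and 4.17-fold in that order, each set against the lowest signal counted as above background on the WT+STZ array or the probe's own signal, whichever was higher. The summed signal of all probes of the list, before scaling, was 103487 units in TG+STZ and 76996 in WT+STZ. Most of it came from Lpl, Fabp4 and Car3, bright on both arrays. Their scaled differences were 0.35 ± 0.14, 0.34 ± 0.20 and 0.13 ± 0.20. Of the 20 markers, 7 are also in the lipid lists above, Cidea and Cidec among them, and fat cells express Scd1. The part of fat cell RNA in the Scd1 difference was not tested, and more cells of a type and more RNA per cell cannot be told apart.

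**Figure D4:**
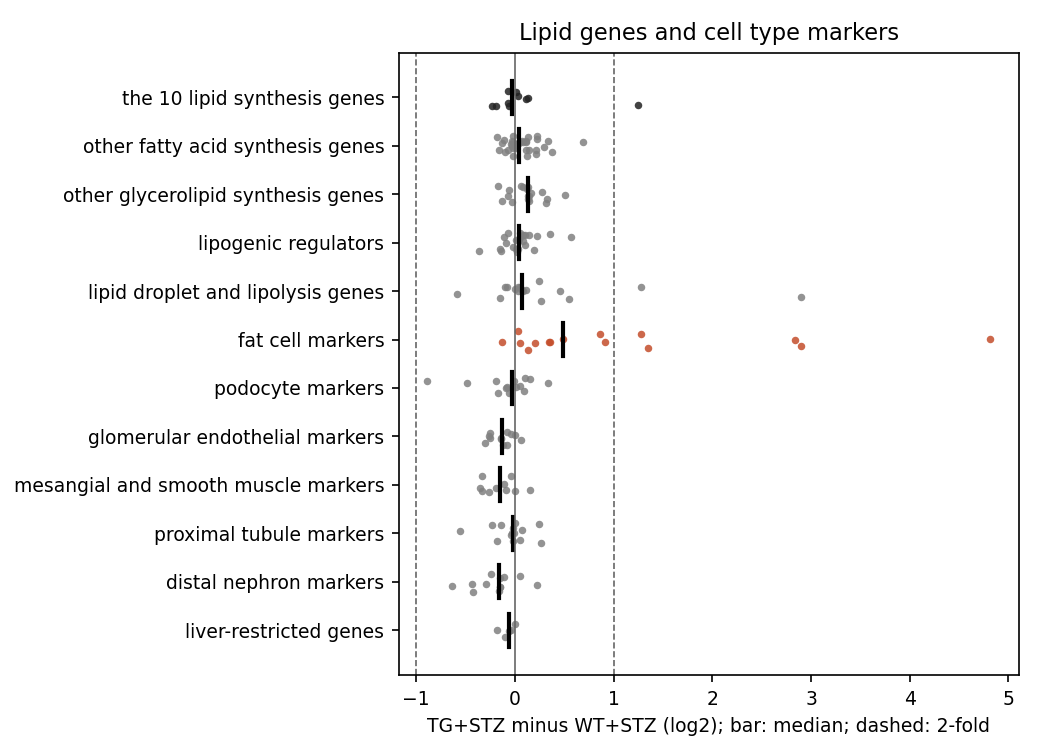
TG+STZ minus WT+STZ (log2) for each measured gene of the lipid lists and cell type marker lists, with the median as a bar and 2-fold as dashed lines. The medians of the lipid lists lie between -0.03 and 0.13, and that of the fat cell markers at 0.48, with members up to 4.82.

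Markers of the labelled tissue were present on both arrays. All 14 podocyte, 12 glomerular endothelial and 10 mesangial and smooth muscle markers were measured, with medians of -0.03, -0.13 and -0.15. Members far from 0 were Nphs1 at -0.89 and Podxl at -0.19 for podocytes, Plat at -0.30, Sox17 and Sox18 at -0.26 and Tie1 at -0.25 for endothelium, and Myh11 at -0.27, Thy1 at -0.33, Serpine2 at -0.34 and Acta2 at -0.35 for mesangium. Tubule markers were present too and were bright, so the lipid genes were read in RNA of mixed cell types. Before scaling, the summed signal of the proximal tubule list was 2.97e+06 units in TG+STZ and 2.84e+06 in WT+STZ. In the same order it was 38778 and 41853 for podocytes, 56136 and 56538 for endothelium and 27589 and 29058 for mesangium. Levels of different probes are not comparable, and the share of each cell type in the RNA was not tested. The 14 proximal tubule markers had a median of -0.02, with Slc22a8 at -0.56, Slc22a6 at 0.26, Slc5a12 at 0.25 and Gatm at -0.23. The 12 distal nephron markers had a median of -0.16, with Slc26a4 at -0.63, Atp6v1g3 at -0.44, Aqp2 at -0.43 and Scnn1g at -0.30. Of 6 genes typical of liver, 5 were measured, with a median of -0.06, Alb at -0.18, Serpina1a at -0.10, Ttr at -0.06 and Apob at -0.04, and the liver enzyme gene Cyp7a1 was not well above background on either array.

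The difference of Scd1 changed little with the processing. It lay between 1.21 under quantile normalization and 1.27 under median scaling over 10 alternatives. Elovl6, Gpam, Dgat1 and Srebf1 kept their sign under all 10. Scd1 and these genes each have 1 probe, well above background on both arrays. Changing the detection filter, taking the brightest probe or using the series' value table cannot move such a gene. Scd1 was 1.25 under each of these, so only the changes of background correction and scaling bear on its value. The sign of Fasn turned under normexp background correction, at -0.05, and those of Acly and Acaca turned with the brightest probe alone, at 0.03 and 0.18. The signs of Scd2 and Dgat2 turned under other scalings, the lowest values being -0.03 each under quantile normalization.

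**Figure D5:**
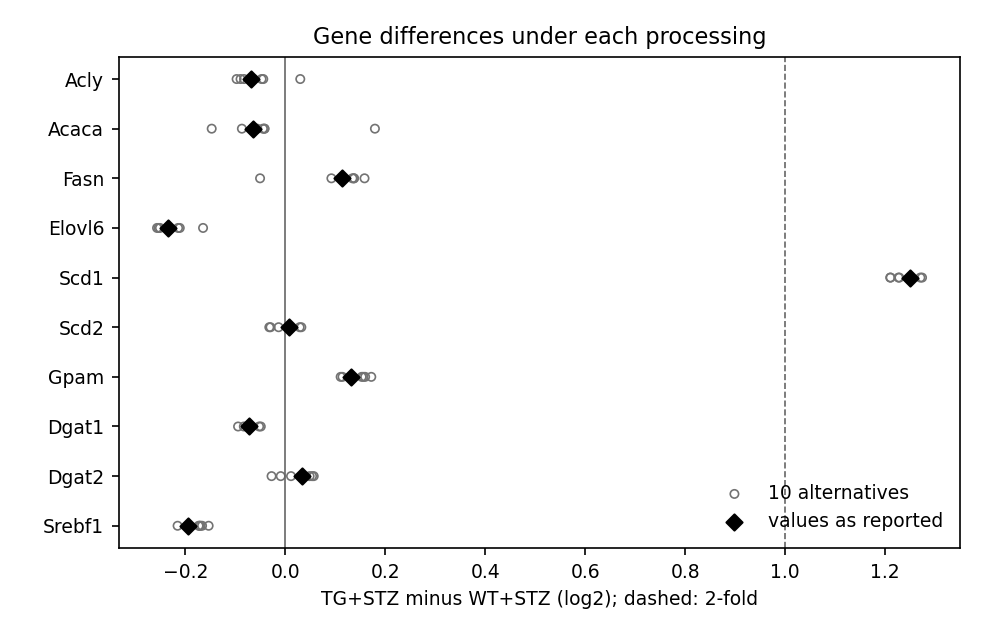
TG+STZ minus WT+STZ (log2) of the 10 genes as reported (diamonds) and under 10 alternatives (circles), with 2-fold as a dashed line. All values of Scd1 lie between 1.21 and 1.27, and those of the other 9 genes between -0.26 and 0.18.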

How the data were processed

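Labelled RNA (Cy3) was hybridised to 2 Agilent mouse arrays, 1 per group. Per the file headers, the authors used Agilent Feature Extraction 10.7.1.1, whereas 10.3.1.1 is the version in the submitters' processing notes. The deposited values are intensity on a linear scale with the software's error and flags (other), corrected within each array and not between arrays. The series' value table repeated these intensities at all 44397 spots of each array. Control spots and outlier spots (109 in TG+STZ, 114 in WT+STZ) were left out. The log2 of the processed intensity was taken, minus the 75th percentile of the array's gene spots, and spots of 1 probe were averaged. Of 39426 probes, 26410 were named through the RefSeq table of GRCm38.p6 by accession; probes well above background and unsaturated on both arrays (28998) were averaged by gene. A gene was counted from 2-fold upward, and with 1 array per group no test was run. The text names every probe of the 10 genes and, of each other list, the genes at least 2-fold apart and then the furthest until 4 are named, except that some genes the rule takes are left out here. The members, lists and rules were chosen with earlier results of these data known. Alternatives changed the background correction (normexp, offset 50, on spot medians), scaling, filter, probe summary and threshold. The steps were tested on simulated data. Promoter sequences are from RefSeq, GRCm38.p6. Software was R 4.3.3 with limma 3.58.1, and Python 3.11.15 with matplotlib 3.10.9, numpy 2.4.6 and pandas 2.3.3.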

Additional observations from a re-analysis of the deposited data

How the results depend on the processing

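Under 11 alternatives 1 of the 10 genes was at least 2-fold (or 1.5-fold) higher and 0 were lower, and their median lay between -0.06 with normexp and 0.03 with the brightest probe of each gene. The series' value table and the filter settings left the 10 genes at their reported values, so those settings check none of them. Acaca moved by more than its scanner error with its brightest probe, to 0.18. The counts past 2-fold that changed were those of the other lists. Normexp left 1 lipid droplet gene and 3 fat cell markers, and brought the median of the fat cell markers to 0.26. With no filter on dim probes, and with the laxer detection flag, 8 fat cell markers were past 2-fold, and their median was 0.67 with no filter and 0.89 with the laxer flag, against 0.48 as reported. Both of these settings gave 3 lipid droplet genes, and the brightest probe gave 6 fat cell markers. At 1.5-fold 1 other fatty acid synthesis gene (Thrsp, higher), 1 podocyte marker (Nphs1, lower) and 1 distal nephron marker (Slc26a4, lower) passed. Lipid droplet genes came to 3 and fat cell markers to 7 at 1.5-fold. Over all genes, 158 were at least 2-fold apart, against 65 under normexp, 618 with no filter and 419 with the laxer flag, and the cause was not tested. Naming probes by a symbol column was not run, because the scanner tables used here have none. No paired analysis was possible because each group has 1 array. Precision is limited by having 1 array per group, and 8 of the 10 genes rest on 1 probe.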

Other observations

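The 4 desaturase genes lie together on chromosome 19 in the RefSeq table, in the order Scd3, Scd2, Scd4 and Scd1, with no other protein-coding gene between them. Their differences were 0.34, 0.01, -0.10 and 1.25 on the log2 scale, so the neighbours of Scd1 did not share its size. The probes of Scd3 differed among themselves. One read 185 units in TG+STZ and 95.5 in WT+STZ (0.87 ± 0.21), another 1006 in TG+STZ and 897 in WT+STZ (0.09 ± 0.20), and a dim one 30.5 in TG+STZ and 27.8 in WT+STZ (0.06 ± 0.26). Scd3 and Scd4 were picked here as paralogues of Scd1, after their values were seen.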
